A study of Mus musculus with 5 samples.

Results

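The genes described here were 35 mouse genes of the integrated stress response and of amino acid supply, read across 5 arrays of 32D cells that carried different FLT3-ITD constructs. The members were a fixed list of ATF4 pathway genes, enzymes for serine, one-carbon, asparagine and proline metabolism, and amino acid transporters, out of 18193 genes with a probe set named in the platform annotation. Of the 35 genes, 34 had a probe set, and Pycr1, an enzyme of proline synthesis, had none in the annotation used. Each gene was read from 1 probe set, that of the highest average signal. Low genes were set aside by a filter: the highest reading of a gene had to reach 2.75, which is the 60th percentile of the whole table, and 27 members did. The values were deposited as log2 values after RMA, so a difference of 1 is 2-fold.

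32D is a murine myeloid progenitor line that normally needs interleukin-3, and FLT3 is a receptor tyrosine kinase that an internal tandem duplication (ITD) makes active without its ligand. The labels name 5 groups of 1 array each by the construct: FLT3 ITD78, ITD598, ITD602, ITD611 and ITD613. All 5 share the cell line, stable retroviral transduction, 3 h of starvation and 1 h with a tyrosine kinase inhibitor that the labels do not name. The labels do not say what the construct numbers mean, or whether a line is a clone or a pool. An untransduced or untreated array was not analysed here. With 1 array per construct there is no replicate error, so differences are described by size without a test, and the number of arrays limits the precision. Where an SD is given, it is that of 4 different constructs (n = 4 arrays) and not of replicates.

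The integrated stress response starts with kinases that sense amino acid shortage, unfolded protein, double-stranded RNA or heme lack and that phosphorylate the translation factor eIF2 on its alpha subunit. Most translation then slows, whereas the transcription factor ATF4 is translated more and switches on genes for amino acid synthesis and uptake, and, under longer stress, genes such as Ddit3 (CHOP) and Trib3 that are tied to growth arrest and cell death. Growing blood cells use the same enzymes to make serine, glycine, one-carbon units for nucleotides, asparagine and proline.

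ATF4 binds together with C/EBP family proteins to the C/EBP-ATF response element (CARE), and the promoters of the members were searched for the core of this element. The letters searched were TGATGNAA on both strands, in RefSeq windows from 250 bases before to 50 bases after each transcript start (GRCm38.p6). Of the 35 members, 31 had a window, and 10 of these held at least 1 match (32.3%), against 1219 of 27025 genes with a window (4.51%). The 10 genes were Asns, Atf3, Chac1, Got1, Nupr1, Pycr1, Slc1a4, Slc7a11, Trib3 and Vldlr. Among genes that passed the filter the counts were 5 of 25 members (20%) and 190 of 7890 genes (2.41%). Several members are on the list because they are known ATF4 targets. Among the serine and one-carbon enzymes 0 of 8 with a window had a match. A match is a description of the letters and not a measured binding site, and a window without a match says only that these letters are not in it. Shown first, whole to the base before the start, are the promoter of Asns, which has a match, and that of Phgdh, the member with the widest range over the arrays, which has none. Capitals mark the match, and every sequence is written 5′ to 3′ on the strand of the gene.
Asns (chr6:7693210-7693459, minus strand): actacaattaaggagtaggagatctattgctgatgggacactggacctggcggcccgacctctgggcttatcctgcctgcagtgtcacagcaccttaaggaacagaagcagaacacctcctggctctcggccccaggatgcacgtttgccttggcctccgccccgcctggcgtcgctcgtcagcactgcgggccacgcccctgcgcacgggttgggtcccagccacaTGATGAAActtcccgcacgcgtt
Phgdh (chr3:98339970-98340219, minus strand): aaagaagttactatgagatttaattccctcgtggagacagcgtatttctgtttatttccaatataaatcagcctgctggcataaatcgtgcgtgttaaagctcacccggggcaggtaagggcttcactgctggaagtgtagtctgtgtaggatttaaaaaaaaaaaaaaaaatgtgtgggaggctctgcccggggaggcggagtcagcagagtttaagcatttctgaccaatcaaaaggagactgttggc
Stretches around the match follow for the other 9 genes. The search fixed every letter but N, so the 8 letters are alike by rule. In Slc7a11, which encodes the cystine carrier, 2 matches on opposite strands face each other. In Trib3 the match lies behind the start, and only 30 bases are shown.
Trib3 (chr2:152344028-152344057, minus strand): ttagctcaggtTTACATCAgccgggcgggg
Got1 (chr19:43524675-43524732, minus strand): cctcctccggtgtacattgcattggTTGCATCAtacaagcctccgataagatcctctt
Slc7a11 (chr3:50443628-50443704, minus strand): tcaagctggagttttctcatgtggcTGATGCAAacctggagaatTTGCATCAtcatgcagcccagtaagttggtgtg
Slc1a4 (chr11:20332699-20332742, minus strand): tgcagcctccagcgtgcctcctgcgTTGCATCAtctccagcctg
Chac1 (chr2:119351024-119351081, plus strand): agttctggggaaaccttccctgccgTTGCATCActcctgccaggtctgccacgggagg
Atf3 (chr1:191183411-191183468, minus strand): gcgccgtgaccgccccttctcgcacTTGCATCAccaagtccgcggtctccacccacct
Nupr1 (chr7:126625548-126625605, minus strand): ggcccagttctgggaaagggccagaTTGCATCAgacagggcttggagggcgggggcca
Vldlr (chr19:27216795-27216852, plus strand): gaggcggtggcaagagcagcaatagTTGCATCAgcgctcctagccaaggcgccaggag
Pycr1 (chr11:120643819-120643876, minus strand): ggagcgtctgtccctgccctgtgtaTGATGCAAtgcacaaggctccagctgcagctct
The letters TTGCATCA, which are TGATGCAA read on the other strand, stand in 7 of the 10 genes with a match, and TGATGCAA itself in Pycr1 and Slc7a11. Asns and Trib3 carry other letters at the free position.

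**Figure D1:**
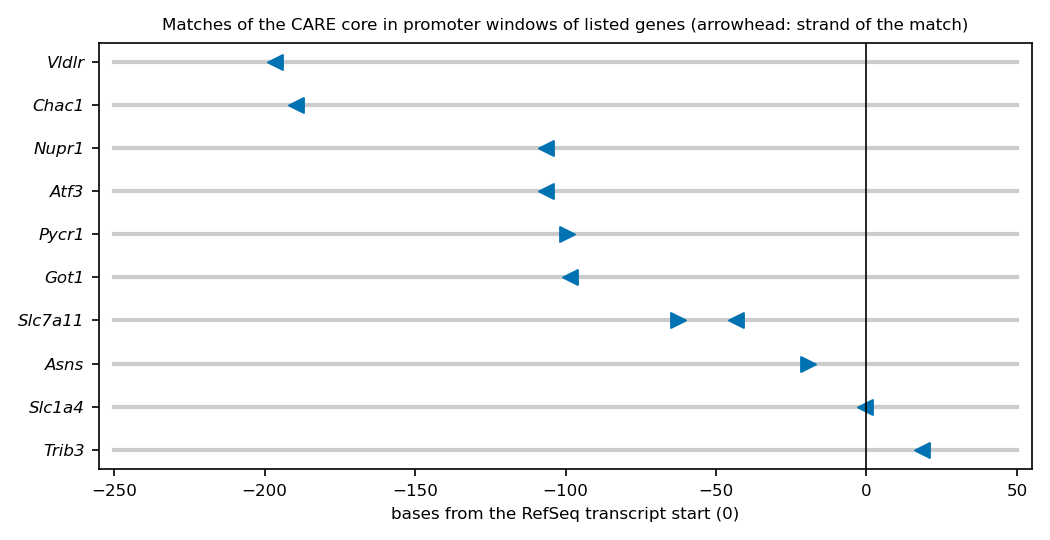
Position of each match (arrowhead, pointing right for the strand of the gene and left for the other strand) in bases from the RefSeq transcript start, for the 10 listed genes with a match; grey lines are the windows searched. Matches lie from position -200 (Vldlr) to position 15 behind the start (Trib3), and Slc7a11 has 2.

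The 35 genes did not move as 1 block. On the ITD613 array the biosynthetic enzymes Phgdh, Gpt2, Asns, Got1, Shmt2 and Mthfd2 read lower than on any other array. Atf4 itself did so too, while the stress genes Ddit3, Trib3 and Ddit4 read higher than on any other array. Psat1, also a biosynthetic enzyme, read highest on ITD613. These orders are from the probe sets used. Others had ITD78 lowest for Gpt2, Mthfd2 and Shmt2, and ITD78 highest for Ddit3 and Psat1. In bulk RNA, fewer cells of a type and less RNA per cell cannot be told apart. Of the 27 members that passed the filter, 10 ranged at least 2-fold over the 5 arrays, against 10.4% of the 9621 genes that passed it. These were Phgdh, Gpt2, Trib3, Ddit3, Asns, Mthfd2, Got1, Psat1, Shmt2 and Slc7a11. ITD613 was the lowest array for 6 of the 10 and the highest for the other 4, of which Slc7a11 lies wholly in a low range where differences cannot be sized. Without the ITD613 array 2 of the 27 members ranged 2-fold (Gpt2 and Mthfd2), and 3.06% of all genes did.

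Against the mean of the other 4 arrays, ITD613 was at least 2-fold lower in 2 of the 27 members (Phgdh and Gpt2), against a background of 2.35%, and at least 2-fold higher in 2 (Trib3 and Ddit3), against 3.18%. With probe sets averaged per gene, only Phgdh of these genes still differed 2-fold (-1.58). Trib3 was then at 0.99, Ddit3 at 0.52 and Gpt2 at -0.76. At 1.5-fold the counts were 8 lower (background 7.38%) and 5 higher (background 9.73%). ITD613 was the lowest of the 5 arrays in 13 of the 27 members (background 29.4%) and the highest in 8 (background 35.7%). The median difference of the 27 members on ITD613 was -0.22, beside 0.01 over all genes that passed, and over all 34 measured members without the filter it was -0.10. Gpt2 and Slc7a11 passed the filter on some arrays only, so their ranges depend in part on how they were admitted. Up to 3.74, identical readings are shared by at least 100 probe sets, and differences that reach into that range cannot be sized.

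**Figure D2:**
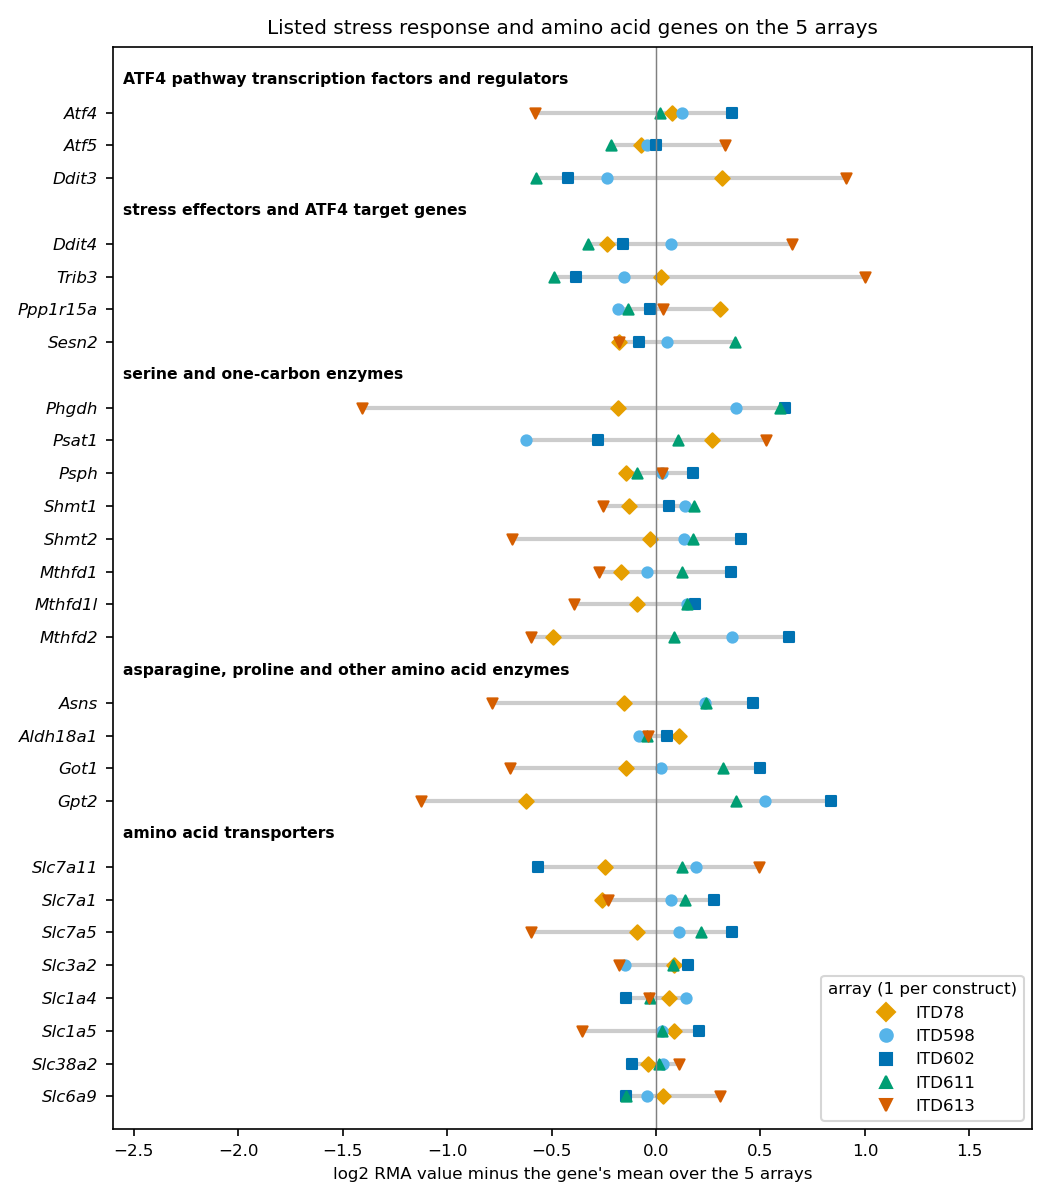
Log2 RMA value on each array minus the mean of that gene over the 5 arrays (x axis), for the 27 listed genes that passed the filter, in 5 role groups; each symbol is 1 array and the grey line is the range. ITD613 (downward triangles) sits at the left end for Phgdh, Shmt2, Mthfd2, Asns, Got1, Gpt2, Slc7a5 and Atf4, and at the right end for Ddit3, Trib3, Ddit4, Psat1 and Slc7a11.

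Among the transcription factors, the gene for ATF4 itself and the gene for its downstream partner CHOP differed in opposite directions on ITD613. Atf4 read 8.93 (ITD78), 8.97 (ITD598), 9.21 (ITD602), 8.87 (ITD611) and 8.27 (ITD613). The first 4 values lie close together, and ITD613 lay 0.72 below their mean of 9.00 ± 0.15 (SD, n = 4 arrays), which is 1.65-fold. A second Atf4 probe set was also lowest on ITD613 (7.38), but it gave ITD602 a low value too (7.70, beside 8.41 to 8.67 on the other 3 arrays), whereas the probe set used put ITD602 highest. The levels of Atf4 RNA say nothing of ATF4 protein, which is set mainly by translation. Ddit3, which encodes CHOP, read 5.09 (ITD78), 4.54 (ITD598), 4.35 (ITD602), 4.20 (ITD611) and 5.68 (ITD613). ITD613 was highest and ITD78 second, and ITD613 stood 2.20-fold above the mean of the other 4 (4.55 ± 0.39, SD, n = 4 arrays). A weaker second Ddit3 probe set, with values from 3.22 to 3.61 in the low range, had ITD78 highest and ITD613 at 3.24. Atf5, a related factor that is also controlled by translation, read 4.87 on ITD613 and 4.32 to 4.54 on the others. That is a difference of 0.41, short of 1.5-fold.

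Of the 4 stress effectors that passed, 2 were highest on ITD613, where 35.7% of all genes were. Trib3, a pseudokinase that restrains AKT signalling and ATF4 output, read 5.38 (ITD78), 5.21 (ITD598), 4.98 (ITD602), 4.87 (ITD611) and 6.36 (ITD613). Its ITD613 value lay 2.38-fold above the mean of the other 4 arrays (5.11 ± 0.23, SD, n = 4 arrays) and 1.97-fold above the nearest, ITD78. Both probe sets of Trib3 were highest on ITD613, but the difference in the second was 0.74, short of 2-fold. Ddit4 (REDD1), an inhibitor of mTORC1, read 5.56, 5.87, 5.64 and 5.48 on ITD78, ITD598, ITD602 and ITD611, and 6.45 on ITD613. It had ITD598 and not ITD78 as the second highest, and ITD613 stood 1.75-fold above the mean. Ppp1r15a (GADD34), the phosphatase subunit that reverses eIF2 phosphorylation, was highest on ITD78 at 6.57, with 6.09 to 6.30 on the other arrays. Sesn2, a leucine sensor of the mTORC1 pathway, was highest on ITD611 at 4.66 and read 4.10 on both ITD78 and ITD613. In the second Sesn2 probe set ITD602 was highest (3.93) and ITD611 read 3.77. These last 2 genes ranged over 0.49 and 0.56, well short of 2-fold.

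The serine and one-carbon enzymes held the largest difference of the list. Phgdh, the first enzyme of serine synthesis from glucose, read 8.44 (ITD78), 9.00 (ITD598), 9.24 (ITD602), 9.21 (ITD611) and 7.21 (ITD613). ITD598, ITD602 and ITD611 lay within 0.24 of one another, ITD78 was lower, and ITD613 was 3.39-fold below the mean of the other 4 (8.97 ± 0.37, SD, n = 4 arrays). It was the only member that ITD613 set at least 2-fold beyond every other array (background 0.925% in that direction), with a distance of -1.23 from ITD78, and 0 members lay 2-fold above every other array there (background 1.31%). All 4 Phgdh probe sets were lowest on ITD613. Psat1, the aminotransferase of the next step, went the other way: it read 6.78 (ITD78), 5.89 (ITD598), 6.24 (ITD602), 6.62 (ITD611) and 7.04 (ITD613). ITD613 was highest and ITD598 lowest for Psat1, 2.21-fold apart. In its second probe set ITD78 was highest (6.68), ITD613 second (6.43) and ITD602 lowest (5.82). Psph, the phosphatase of the last step, lay between 3.66 and 3.98 on the 5 arrays, too near the low range to give an order. Phgdh and Psat1, consecutive enzymes of 1 short pathway, thus differed in direction on ITD613.

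Mitochondrial one-carbon enzymes were lower on ITD613. Shmt2, which splits serine into glycine and a one-carbon unit in mitochondria, read 7.37 (ITD78), 7.54 (ITD598), 7.81 (ITD602), 7.58 (ITD611) and 6.71 (ITD613). ITD613 was 1.82-fold below the mean of the others (7.58 ± 0.18, SD, n = 4 arrays), and 3 of its 4 probe sets had this sign. Mthfd2, the mitochondrial dehydrogenase and cyclohydrolase of the next steps, read 6.70 (ITD78), 7.55 (ITD598), 7.83 (ITD602), 7.28 (ITD611) and 6.59 (ITD613). For Mthfd2, ITD78 was as low as ITD613 to within 0.11, and both lay below the other 3 arrays, which was also so in its second probe set. Mthfd1l, which releases formate from mitochondria, read 7.31 on ITD613 and 7.61 to 7.89 elsewhere. Among the cytosolic enzymes, Shmt1 read 6.48 on ITD613 and 6.61 to 6.92 on the others. The 4 Shmt1 probe sets differed there by -0.79, -0.79, -0.37 and -0.32, the last being the one used, and those of Shmt2 by -0.86 (the one used), -0.49, -0.32 and 0.05, so no order of the 2 genes can be read. Mthfd1 read 8.77 on ITD613 and 8.87 to 9.40 on the others. ITD613 was the lowest array for 6 of the 8 genes of this group that passed the filter (29.4% of all genes). Their median difference was -0.41, beside 0.01 over all genes that passed. In 1 other probe set each, Shmt1, Shmt2 and Mthfd2 had ITD78 lowest and Mthfd1 had ITD602 lowest.

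Of the enzymes for other amino acids, 3 of the 4 that passed were lowest on ITD613 (29.4% of all genes were) and ranged at least 2-fold (10.4% of all genes did). Asns, asparagine synthetase and a classic ATF4 target, read 7.81 (ITD78), 8.19 (ITD598), 8.43 (ITD602), 8.20 (ITD611) and 7.18 (ITD613). The ITD613 value was 1.97-fold below the mean of the others (8.16 ± 0.26, SD, n = 4 arrays), ITD78 was second lowest, and the second probe set gave the same order at both ends. Got1, the cytosolic aspartate aminotransferase, read 5.15 (ITD78), 5.32 (ITD598), 5.79 (ITD602), 5.61 (ITD611) and 4.59 (ITD613). It showed the same order as Asns with ITD613 lowest, ITD78 second and ITD602 highest. Gpt2, the mitochondrial alanine aminotransferase, read 3.16 (ITD78), 4.30 (ITD598), 4.62 (ITD602), 4.16 (ITD611) and 2.66 (ITD613). Its 2 low readings lie in the range of shared values, and with values below 3.74 raised to that level the ITD613 difference was -0.47 in place of -1.41. All 4 Gpt2 probe sets had the same sign, but 3 of them put ITD78 lowest, by at most 0.02. Aldh18a1, the first enzyme of proline synthesis, lay between 8.12 and 8.31 on the 5 arrays and showed no such difference.

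Of the 8 transporters, 3 were lowest on ITD613 (29.4% of all genes were) and 3 highest (35.7% of all genes were), and other probe sets disagreed for 2 of the latter. Slc7a5, the light chain of the leucine carrier LAT1, read 8.13 (ITD78), 8.34 (ITD598), 8.59 (ITD602), 8.44 (ITD611) and 7.63 (ITD613). ITD613 lay 1.68-fold below the mean of the others (8.37 ± 0.19, SD, n = 4 arrays). Its heavy chain gene Slc3a2 ranged from 7.72 on ITD613 to 8.05 on ITD602, and 0.02 separated ITD613 from the next array. Slc7a1, the cationic amino acid carrier, read 9.29 on ITD78 and 9.31 on ITD613, and 9.62 to 9.82 on the other 3. Another Slc7a1 probe set had ITD613 lowest (7.74), then ITD78 (8.09), with 8.21 to 8.43 on the other 3. Slc6a9, a glycine carrier, read 4.56 on ITD613 and 4.11 to 4.29 on the others. Its second probe set had ITD613 highest (4.31) and ITD78 next. The other 3 read 3.40 to 3.46 in that probe set, below 3.74, so its difference cannot be sized. Slc38a2, a neutral amino acid carrier known to respond to starvation, lay between 8.26 and 8.48, with ITD613 highest, but a second probe set had ITD613 lowest (5.46, with 5.93 to 6.18 elsewhere). Slc7a11 read 2.97 (ITD78), 3.41 (ITD598), 2.65 (ITD602), 3.35 (ITD611) and 3.72 (ITD613), all in the range of shared values, and its other probe set had ITD613 lowest at 2.60. No direction can be given for Slc7a11 or Slc38a2 from these arrays. Slc1a4 and Slc1a5, carriers of neutral amino acids, ranged over 0.28 and 0.56. Slc1a5 is 1 of the 3 counted as lowest on ITD613, but its values were all below 3.74, so no order can be read from it.

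**Figure D3:**
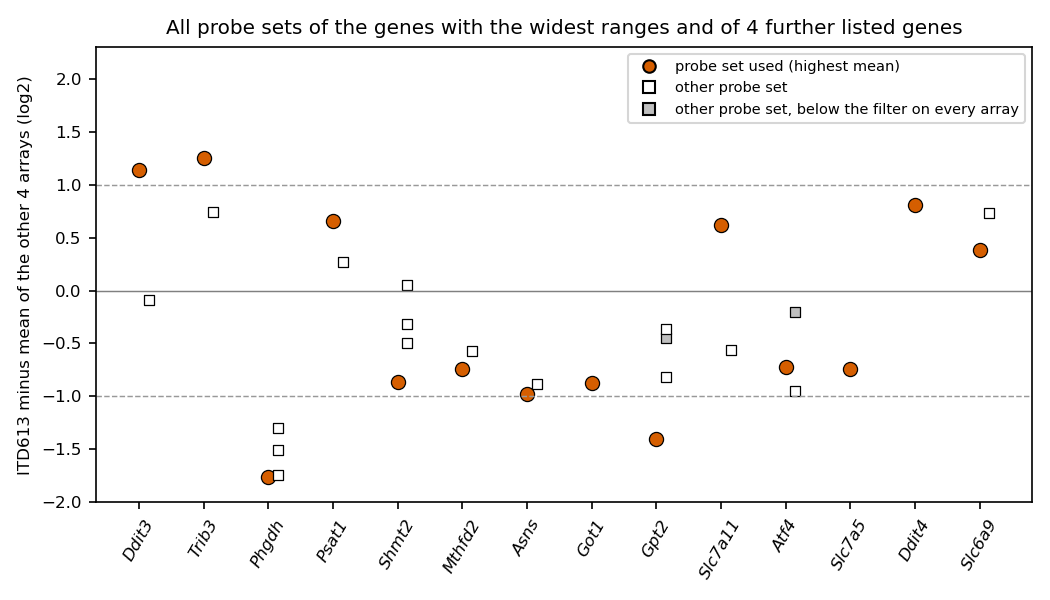
ITD613 minus the mean of the other 4 arrays (log2, y axis) for every probe set of the 10 listed genes that ranged at least 2-fold and of Atf4, Slc7a5, Ddit4 and Slc6a9; circles are the probe sets used, squares the others, grey ones below the filter on every array, and dashed lines mark 2-fold. The probe sets of Phgdh all lie below -1, those of Trib3, Psat1, Mthfd2, Asns, Gpt2, Atf4 and Slc6a9 share a sign, and those of Ddit3, Shmt2 and Slc7a11 lie on both sides of 0.

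The 7 measured members that did not pass the filter were Atf3, Nupr1, Chac1, Vldlr, Aldh1l2, Cth and Cbs, and they include 4 of the 10 genes with a CARE core. Atf3, a stress-induced repressor of transcription, read 1.02 to 1.35, and Chac1, a glutathione-degrading enzyme strongly induced by ATF4, read 1.55 to 1.76. Nupr1, a stress-induced nuclear protein, read 1.84 to 2.36, and Vldlr, a lipoprotein receptor that ATF4 can raise, read 1.56 to 1.85. The mitochondrial folate enzyme Aldh1l2 read 1.02 to 1.14. The transsulfuration enzymes Cth and Cbs, which make cysteine from homocysteine, read 0.67 to 0.81 and 2.36 to 2.52. These values lie below 2.75 on every array, and no order of the arrays can be read from them.

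Pair by pair, the members showed 2-fold differences mainly where ITD613 was 1 of the arrays. ITD613 differed at least 2-fold from ITD602 in 9 of the 27 members (33.3%, background 8.28%), from ITD598 in 6 (22.2%, background 6.3%) and from ITD611 in 6 (22.2%, background 6.89%). Against all 3, Phgdh, Asns and Gpt2 were lower and Ddit3 and Trib3 higher on ITD613. Got1 was added against ITD611 and ITD602, Shmt2, Mthfd2 and Slc7a11 against ITD602, and Psat1 against ITD598. Slc7a11 is counted from readings that all lie below 3.74, and its other probe set had the opposite sign, so no direction rests on it. Gpt2 also has a reading on ITD613 in that range. These pairs share the ITD613 array. Among ITD598, ITD602 and ITD611 none of the 3 pairs had a member that differed 2-fold, where the background was 0.26% (ITD598 and ITD602), 0.125% (ITD598 and ITD611) and 0.218% (ITD602 and ITD611). ITD613 and ITD78 differed 2-fold only in Phgdh (1 of 27, background 2.96%).

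**Figure D4:**
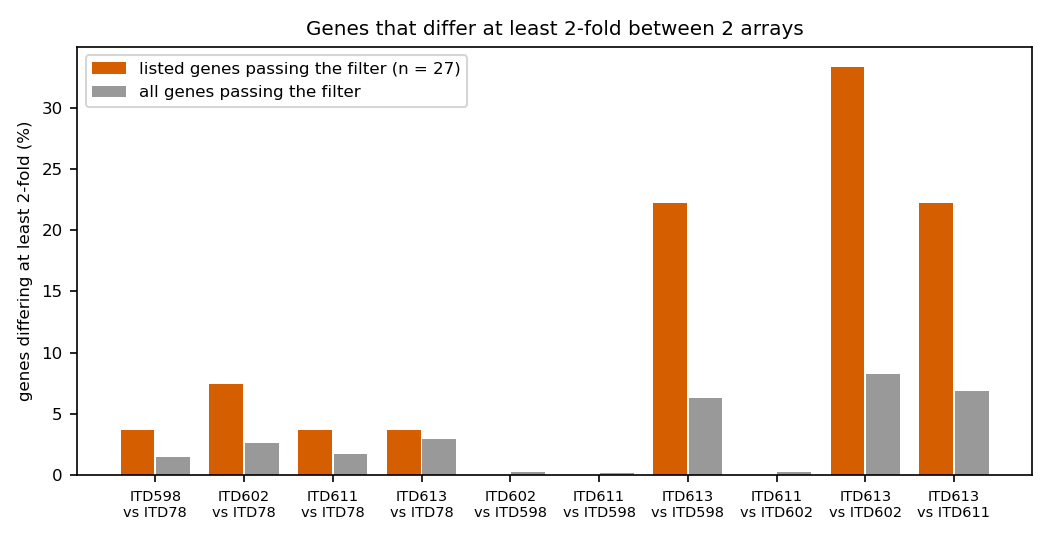
Share of genes differing at least 2-fold (percent, y axis) for each of the 10 pairs of arrays, with bars for the 27 listed genes that passed the filter (orange) and for all 9621 genes that passed it (grey). The 3 highest orange bars, 22.2% to 33.3%, are ITD613 against ITD598, ITD602 and ITD611; the 3 pairs among those arrays have none.

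ITD78 lay between ITD613 and the other 3 arrays in 9 of the 10 members with a 2-fold range, Slc7a11 being the exception, and in 70.2% of the 999 genes with such a range. Other probe sets placed ITD78 outside for some of the 9. ITD78 was highest in the second probe sets of Psat1 and Ddit3, and lowest in that of Mthfd2. It was also lowest in 3 of the 4 probe sets of Gpt2 and in 1 of the 4 of Shmt2 (3.86, beside 4.10 to 4.15). Gpt2 was at least 2-fold lower on ITD78 than on ITD598, ITD602 and ITD611, and Mthfd2 was so against ITD602. The ITD78 reading of Gpt2 is below 3.74, and with low values raised to that level its whole range over the 5 arrays was 0.88, so these Gpt2 differences were then under 2-fold. The background of these pairs was 1.5% (ITD598), 2.59% (ITD602) and 1.68% (ITD611). Against the mean of the other 4 arrays, 0 members were 2-fold higher on ITD78 (background 0.374%), 0 were 2-fold lower (background 0.457%), and Gpt2 and Mthfd2 were 1.5-fold lower (background 1.91%). Atf4 was not among the genes lower on ITD78: its 8.93 there lay between the 8.87 of ITD611 and the 8.97 of ITD598. Ddit4 too was near its ITD602 and ITD611 levels on ITD78. The median difference of the 27 members on ITD78 was -0.12, beside -0.03 over all genes.

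On the ITD602 array the enzymes stood at the upper end. ITD602 was the highest of the 5 arrays in 14 of the 27 members (background 29.5%), and in 9 of the 12 enzymes that passed the filter. Both counts include Psph, and the count of members also includes Slc1a5. For Psph and Slc1a5 no order of the arrays can be read, as said above. Mthfd1 and Atf4 are counted too, but another Mthfd1 probe set had ITD602 lowest (6.83). Another Atf4 probe set had ITD602 second lowest (7.70). Gpt2 was 2-fold above the mean of the other 4 arrays there (1 of 27, background 0.676%), with a difference of 1.05 that includes its low readings on ITD78 and ITD613. At 1.5-fold, 4 members were higher there (Gpt2, Mthfd2, Phgdh and Got1, background 2.96%). The median difference of the members was 0.19, beside 0.03 over all genes. Against ITD598 the median was 0.15 and against ITD611 it was 0.14 in the same direction, beside 0.03 and 0.05 over all genes. On ITD602, 18 of the 27 members were higher than on ITD598 (55% of all genes were) and 20 were higher than on ITD611 (59.9% of all genes were). The title of the ITD602 array carries another date-like string than the other 4, and its spiked-in bioB control read 6.10, beside 2.43 to 2.83, so for this array the construct and the run it may stand for cannot be told apart.

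Other genes of these pathways were followed in lists that held no member. Of the 12 measured genes for eIF2 kinases, eIF2B subunits and their regulators, all passed the filter. None ranged 2-fold, where 10.4% of all genes did, and the widest range was 0.59. Of 13 further ATF4 partners and targets that passed, 2 ranged at least 2-fold (15.4%, beside the 10.4% of all genes). Gadd45a, a stress-induced growth arrest gene, read 4.94 (ITD78), 4.83 (ITD598), 3.92 (ITD602), 3.98 (ITD611) and 5.85 (ITD613), highest on ITD613 like Ddit3 and Trib3. Vegfa, the vascular growth factor, read 3.63 on ITD613 and 4.22 to 4.63 on the others, and its range was 0.89 with low values raised to 3.74. Of 9 other one-carbon, glycine and nucleotide genes, 7 were below the mean of the other 4 arrays on ITD613, where 47.7% of all genes were, with a median of -0.45. Mthfd2l, a mitochondrial relative of Mthfd2, read 3.64 on ITD613 and 4.78 to 5.41 on the others, lower there in 4 of 4 probe sets. With low values raised to 3.74 its range was 1.67. Slc25a32, which carries folate into mitochondria, read 5.58 on ITD613 and 6.53 to 6.59 on the others, a spread of the other 4 arrays of ± 0.03 (SD).

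Of 8 other amino acid metabolism genes that passed, 7 were below the mean on ITD613 (47.7% of all genes were), with a median of -0.25. None of them ranged 2-fold, where 10.4% of all genes did. Of 8 other transporters, 4 were above and 4 below the mean, and 2 ranged 2-fold (10.4% of all genes did). Slc43a1, a carrier of large neutral amino acids, read 5.39 (ITD78), 4.66 (ITD598), 4.45 (ITD602), 4.60 (ITD611) and 6.16 (ITD613), the opposite order to Slc7a5. Slc38a9, a lysosomal arginine sensor, read 4.80 on ITD613 and 3.76 to 4.27 on the others, with 6 of its 7 probe sets of this sign. Of 13 amino acid sensing and mTORC1 genes, 10 were above the mean on ITD613 (52.2% of all genes were), and the 2 restraining genes Tsc1 and Nprl3 were 2-fold above it (3.18% of all genes were). Tsc1 read 6.53 on ITD613 and 5.05 to 5.77 on the others, and Nprl3, a subunit of the GATOR1 complex, read 6.21 and 5.06 to 5.51. Deptor, an inhibitor bound to mTOR itself, went the other way at 4.51 on ITD613 and 4.86 on ITD78, with 5.82 to 6.17 on the other 3, in the same direction for 6 of 6 probe sets.

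**Figure D5:**
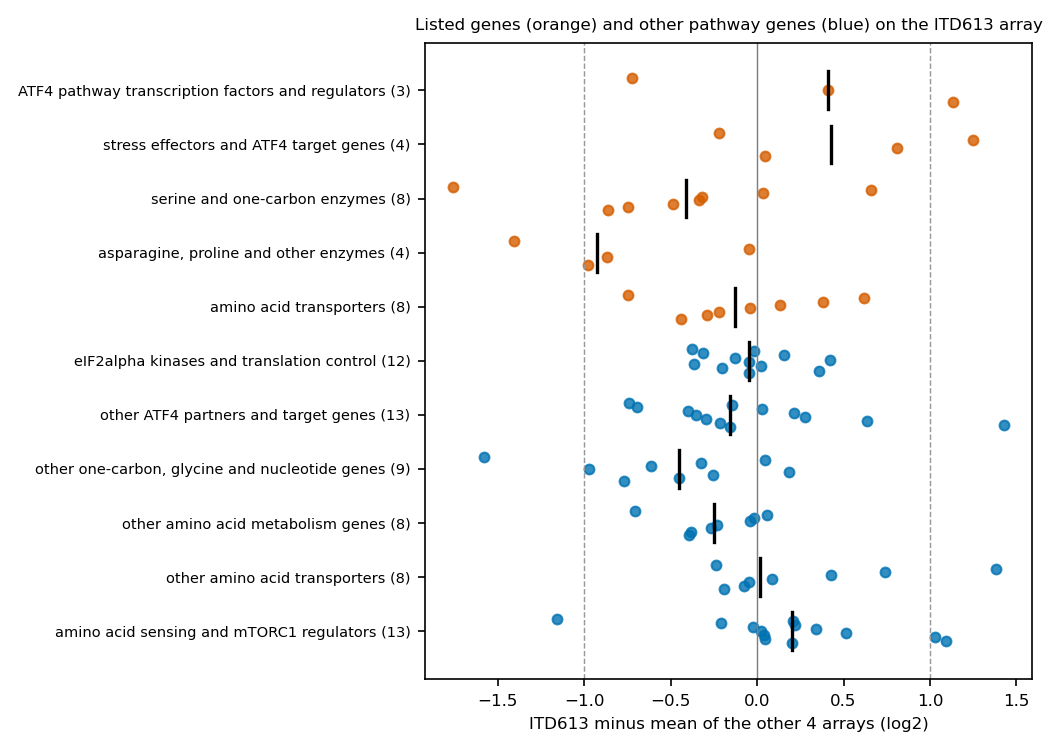
ITD613 minus the mean of the other 4 arrays (log2, x axis) for each gene that passed the filter, by list, with the number of genes in brackets; orange points are the members, blue points the other pathway genes, black ticks the list medians, dashed lines 2-fold. The medians run from -0.93 (asparagine, proline and other enzymes, 4 genes) to 0.43 (stress effectors and ATF4 targets, 4 genes).

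Cell type markers and controls also moved with the arrays. Of 10 myeloid progenitor markers 7 passed, and 6 of the 7 were below the mean of the other 4 arrays on ITD613 (47.7% of all genes were). Ctsg read 6.24 there and 7.42 to 9.17 on the others, and Myb, the 1 above the mean, read 9.91 and 8.91 to 9.34. By contrast Kit, Cd34 and Elane were below the filter on every array. The summed log2 level of the 10 was 46.26 on ITD78, 54.78 on ITD598, 54.61 on ITD602, 51.15 on ITD611 and 46.04 on ITD613. Of 5 measured erythroid markers 3 passed, and Alas2 and Hba-a1 were below the filter on every array. Of the 3, 2 were above the mean on ITD613 (52.2% of all genes were) and 1 below (47.7% were). The sums of all 5 were 21.19, 19.24, 18.26, 18.98 and 23.96 in the same order of arrays, with Klf1 at 10.01 on ITD613. The 5 measured monocyte and macrophage markers summed to 14.62 on ITD613, 16.72 on ITD78 and 22.40 to 24.07 on the others. For the 6 mast cell and basophil markers, of which 3 passed, the sum was 17.33 on ITD613 and 11.05 to 12.89 elsewhere. All 3 were above the mean on ITD613 (52.2% of all genes were). ITD613 was highest in 2 of the 3 (35.7% of all genes) and ITD598 in 1. For 6 platelet markers it ran from 25.52 (ITD613) to 31.04 (ITD78). Of the 5 platelet markers that passed, 3 were above the mean on ITD613 (52.2% of all genes were) and 2 below (47.7% were). Pf4, 1 of those below, read 3.09 there, in the low range below 3.74, and 5.99 to 6.51 elsewhere. For 5 measured lymphoid markers the sum ran from 10.76 to 11.21. The 3′ minus 5′ difference of the Gapdh control probe sets, a sign of RNA quality, was 0.56 on ITD613 and 0.59 on ITD611, beside 0.30 to 0.34 on the other 3. That of Actb was 1.41, 1.56 and 1.19 to 1.25. The Gapdh 3′ probe set itself read 10.30 on ITD613, 10.56 on ITD78, 10.82 on ITD598, 10.84 on ITD611 and 11.17 on ITD602. Asns and Got1 also had ITD613 lowest, ITD78 next and ITD602 highest. The part of cell makeup and RNA quality in the differences above was not tested.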

How the data were processed

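Biotin-labelled RNA of 5 transduced 32D lines was read on Affymetrix mouse arrays, 1 per construct, per the labels. The authors used RMA, per the submitters' processing notes, and deposited 1 log2 value for each probe set and array. The program that ran RMA was not given in the sources used here. Values reach 13.45, from which the log base was taken, and the zero point is not stated, so levels of different probe sets were not compared. All 5 value columns were assigned to a sample by name. Of 45101 probe sets, 34945 had 1 gene symbol and were no control.

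For each gene the probe set with the highest mean was used, with a filter at the 60th percentile (2.75). Each array was compared with the mean of the other 4 and with each other array, and described by fixed folds (2 and 1.5), with no test, since 1 array per construct leaves no residual degrees of freedom. The rules were tested on simulated data. Members and lists were chosen with earlier results of these data known. Every member could be named; of other pathway lists up to 4 genes with the widest 2-fold range were, of marker lists those with the highest value or widest range, and Kit, Cd34, Elane, Alas2 and Hba-a1 were added after their values were seen because they were below the filter. Older symbols were matched by gene ID through a RefSeq table of GRCm38.p6, which also gave the promoter windows. Alternatives covered the choice of probe set, the filter, low values, centring, the reference and each array left out. Python 3.11.15, pandas 2.3.3 and numpy 2.4.6 were used.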

Additional observations from a re-analysis of the deposited data

How the results depend on the processing

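The count of members with a 2-fold range (10 of 27) was 6 of 27 with probe sets averaged per gene (7.67% of all genes) and 6 of 26 with _x_at and _s_at probe sets left out (10.6% of all genes), and it ran from 2 (without ITD613) to 10 when each array was left out in turn. In the other alternatives run it was 8 to 14, the 14 with 1.5-fold in place of 2-fold (31.7% of all genes). The median member difference on ITD613 (-0.22) was -0.10 without the filter and ran from -0.29 to -0.21 with other arrays left out. That on ITD602 (0.19) was 0.0821 without the filter and 0.0753 with low values raised to 3.74, and ran from 0.12 to 0.21. Leaving out arrays gave -0.16 to -0.05 on ITD78, 0.01 to 0.14 on ITD598 and 0.05 to 0.15 on ITD611. None of these medians changed sign in any alternative run.

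Among single genes, the ITD613 difference of Ddit3 was 0.52 and that of Shmt2 -0.41 with the mean of probe sets, and those of Shmt2 and Gpt2 were -0.32 and -0.36 without _x_at and _s_at probe sets. That of Trib3 was 0.99 with the mean of probe sets and 0.74 without _x_at and _s_at probe sets, both short of 2-fold. The cause was not tested, other than that these settings use other probe sets. Slc7a11 was at 0 with low values raised and 0.03 with the mean of probe sets. The Phgdh difference stayed between -1.94 and -1.58 in the alternatives run; all its probe sets end in _x_at, so it had no value without them. No paired analysis was possible because each construct has 1 array and the labels give no replicate numbers. Signal near the low shared values limits Gpt2, Slc7a11, Slc1a5, Psph, Vegfa, Mthfd2l, Pf4 and the second probe sets of Ddit3 and Slc6a9.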
